A study of Mus musculus with 5 samples.

Results

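Esr1, Esr2, Pgr and Cyp19a1 are the genes of the gonadal steroid receptors for estrogen and progesterone and of aromatase, and their transcripts were followed through nuclei of the mouse paraventricular hypothalamus (PVH). The 4 genes were taken by symbol from the 31054 genes of the deposited tables, and each symbol had 1 row. Esr1 encodes estrogen receptor alpha, Esr2 encodes estrogen receptor beta, Pgr encodes the progesterone receptor, and Cyp19a1 encodes aromatase, the enzyme that makes estrogens from androgens. The level of each gene was described in oxytocin (OT) neurons, in other Sim1-positive neurons and in GABAergic neurons, across the 5 libraries of the study.

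Steroid hormones cross the cell membrane and bind receptors that act as transcription factors at DNA elements near their target genes. In the male brain, testosterone from the testis is converted locally by aromatase to estradiol, which then binds the estrogen receptors. In rodents estrogen receptor beta is the form known from the PVH, while estrogen receptor alpha and aromatase are known from the preoptic area, the bed nucleus of the stria terminalis and the ventromedial and arcuate hypothalamus. Pgr is itself a textbook target of estrogen receptor alpha.

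All mice were male and on a C57BL6 background, and each library held nuclei pooled from 2 to 4 mice, sorted by DAPI with larger nuclei favoured and multiplets excluded. In the first experiment OT-Cre; Ai9 (Rosa26tm9(CAG-tdTomato)Hze) mice, in which Cre in oxytocin neurons switches on the red protein tdTomato, were taken at 5 weeks and dissected by its light; the saline library came from mice whose dams received saline at 10 mL/kg on gestation day 12.5, and the VPA library from mice whose dams received sodium valproate (VPA) at 500 mg/kg on that day. In the second experiment mice of OT-Cre; Rosa26dreaddm3 (stop-hM3) genotype, which carry a Cre-dependent activating DREADD receptor, were taken at 5 to 7 weeks; all had been exposed to VPA before birth, and they received saline (the hM3 control library) or the DREADD ligand clozapine N-oxide (CNO libraries 1 and 2) on postnatal day 2. An AAV was injected into the PVH and supraoptic region of these mice, and what it carried is not given in the sources used here. The saline library was therefore the one library without VPA exposure. Transcripts in nuclei were counted, not protein. With 1 library in every group but CNO, no test between groups was made (1 library against 2 cannot give an exact p under 0.333). The intervals given beside levels and ratios cover counting error only, and ratios between groups were taken only within an experiment.

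The regions around the start sites show the genes whose transcripts were counted and where the DNA motif of the estrogen receptors would stand. No motif of the progesterone receptor was searched. The sequences are from RefSeq (GRCm38.p6), run from 250 bases before to 50 bases after the first annotated start, are printed 5′ to 3′ on the gene's strand, and carry in capitals each match to the core motif of the estrogen response element (GGTCA, or its reverse complement TGACC). They lie at chr10:4611739-4612038 on the plus strand for Esr1, chr12:76177210-76177509 on the minus strand for Esr2, chr9:8899583-8899882 on the plus strand for Pgr and chr9:54268115-54268414 on the minus strand for Cyp19a1. RefSeq gives 1 further start for Esr1 and 2 further starts for Cyp19a1, which are not shown.
Esr1: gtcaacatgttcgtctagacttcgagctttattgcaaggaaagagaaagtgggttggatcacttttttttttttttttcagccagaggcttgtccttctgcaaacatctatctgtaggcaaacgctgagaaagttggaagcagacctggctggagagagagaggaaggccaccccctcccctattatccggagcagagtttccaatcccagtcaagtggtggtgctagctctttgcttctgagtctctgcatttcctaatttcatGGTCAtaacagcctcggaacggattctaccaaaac
Esr2: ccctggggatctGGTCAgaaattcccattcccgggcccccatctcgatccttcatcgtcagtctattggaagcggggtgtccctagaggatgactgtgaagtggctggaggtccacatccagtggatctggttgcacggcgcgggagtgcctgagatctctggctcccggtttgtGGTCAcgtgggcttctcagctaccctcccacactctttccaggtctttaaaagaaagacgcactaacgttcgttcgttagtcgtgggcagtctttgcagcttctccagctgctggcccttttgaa
Pgr: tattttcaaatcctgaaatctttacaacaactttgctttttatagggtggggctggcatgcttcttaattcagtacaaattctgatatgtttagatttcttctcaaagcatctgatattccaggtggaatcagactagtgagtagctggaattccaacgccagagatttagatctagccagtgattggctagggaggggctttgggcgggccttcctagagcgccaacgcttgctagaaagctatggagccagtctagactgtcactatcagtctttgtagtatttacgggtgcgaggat
Cyp19a1: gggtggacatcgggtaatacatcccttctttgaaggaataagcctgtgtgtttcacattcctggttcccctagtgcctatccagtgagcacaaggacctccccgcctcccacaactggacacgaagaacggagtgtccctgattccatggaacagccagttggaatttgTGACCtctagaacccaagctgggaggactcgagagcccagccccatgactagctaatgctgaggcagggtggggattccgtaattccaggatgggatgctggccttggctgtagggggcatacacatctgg
The core motif occurred 1 time in the Esr1 window, 2 times in the Esr2 window, 1 time in the Cyp19a1 window and not in the Pgr window. Of 32851 mouse promoter windows of the same length, 40.5% held at least 1 core motif and 10.8% held at least 2. The full element, GGTCA and TGACC facing each other with 3 bases between, which was in 0.0700% of all windows, was in none of the windows of the 4 genes. The Pgr window held 1 GC box (GGGCGG, in 35.7% of all windows) and 1 TATAAA motif on either strand (in 13.6% of all windows). A match is a run of letters and not a measured binding site.

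After filtering, 4115 to 9823 nuclei per library were used, with a median of 4205.5 to 12059 unique molecular identifiers (UMIs, one per captured transcript copy) per nucleus. The VPA library was shallower than the saline library (median 5247 against 10826 UMIs), and CNO library 2 shallower than CNO library 1 (4205.5 against 12059). Any pair of libraries shared 4 to 23 cell barcodes. Clusters were built without the 4 genes. Levels are given as CPM (UMIs of a gene for each 1000000 UMIs of the population). Whole clusters were called OT-like by Oxt at 300 CPM or more with Sim1, Otp and Slc17a6 (344 nuclei). Those with Sim1 and Otp but Oxt under 300 CPM were called Sim1-type (4124 nuclei). Clusters with Gad1, Gad2 and Slc32a1 were called GABAergic (7987 nuclei). Oxt stood at 368 to 1601 CPM in both OT-like subclusters. At least 1 Oxt UMI was also found in 6.25 to 22.3% of Sim1-type nuclei and in 3.45 to 19.9% of glia-like nuclei. Esr1, Esr2, Pgr and Cyp19a1 UMIs were found in 0 to 1.98% of those glia-like nuclei, whose median depth was 1914 to 4058 UMIs. The OT-like nuclei held 2 subclusters: a Reln-rich one (121 nuclei, 7 to 40 per library), with Reln at 637 to 1311 CPM, and a magnocellular-like one (223 nuclei, 12 to 95 per library), with Reln at 1.11 to 11.8 CPM. Of the 5 genes listed as markers of magnocellular OT neurons, Oxt, Calb1 (102 to 174 against 1.53 to 27.2 CPM), Kcnmb4 (77.5 to 145 against 16.7 to 54.3 CPM) and Foxp1 (677 to 859 against 91.2 to 180 CPM) were higher in the second subcluster in all 5 libraries, and Avp (8.73 to 41.2 against 15.6 to 51.5 CPM) was lower there in 4 of 5. A further Oxt cluster with marker genes of several classes (73 nuclei, 6.25% to 8.42% of Oxt nuclei in the first experiment and 26.9% to 32.8% in the second) was set aside, as were 3 clusters with GABA markers that missed another criterion of the class (11.4% to 21.1% of GABA-marker nuclei in 4 libraries and 43.5% in CNO library 2).

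Esr1, the gene of estrogen receptor alpha, differed widely between the OT-like subclusters. In the Reln-rich subcluster it stood at 200 ± 58.1 CPM (mean ± SD, n = 5 libraries), with 237 in saline, 180 in VPA, 146 in the hM3 control, 156 in CNO library 1 and 283 in CNO library 2. The magnocellular-like subcluster had 5, 3, 1, 0 and 2 Esr1 UMIs in those libraries, a mean of 3.63 ± 3.13 CPM, which was no more than the 4.73 ± 0.74 CPM of glia-like nuclei. No library of one subcluster overlapped any library of the other. The share of all genes without such overlap is not given here, for Esr1 or for Esr2 below. Esr1 UMIs were found in 52.5 to 82.4% of Reln-rich nuclei and in 0 to 8% of magnocellular-like nuclei, at median depths of 7086 to 21173 and 8469 to 18597.5 UMIs. When every nucleus was thinned to 2000 UMIs the shares were 14.3 to 38.2% and 0 to 2.11%.

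Below the Reln-rich subcluster, Esr1 stood at 78.8 ± 19.5 CPM in GABAergic neurons, 48.5 ± 6.75 CPM in Sim1-type neurons and 9.92 ± 1.52 CPM in neurons with thalamus markers. The difference between the Reln-rich and magnocellular-like subclusters had the same sign in 5 of 5 libraries (mean 197 CPM, exact sign-flip permutation over libraries, two-sided p = 0.063, adjusted p = 0.0848 over 19 comparisons between populations). That is the smallest p that 5 libraries can give, so no comparison of populations could pass 0.05. GABAergic neurons were above Sim1-type neurons in 4 of 5 libraries (exact p = 0.125, adjusted 0.158), the exception being CNO library 2 (48.1 against 48.5 CPM), and their ranges over libraries overlapped (48.1 to 101 and 38.4 to 57.4 CPM). The ranges of glia-like and magnocellular-like nuclei overlapped too (3.92 to 5.91 and 0 to 7.75 CPM, exact p = 0.4375, adjusted 0.462). At this number of libraries such p-values do not show that populations are alike. With equal weight for the 15 GABAergic and 5 Sim1-type clusters that had at least 10 nuclei in every library, the Esr1 levels were 62.6 and 79.4 CPM, which turns the order of these classes.

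Within both large classes Esr1 was widespread, at 20 CPM or more in 23 of 29 Sim1-type and 13 of 18 GABAergic clusters, and a few clusters stood well above the rest. The median of 29 Sim1-type clusters with at least 50 nuclei was 34.8 CPM, and the highest, a cluster led by Col6a5, Gm20757, Sema3a, 9530026P05Rik and Gm13481 (215 nuclei), reached 260 CPM. The median of 18 GABAergic clusters was 54.1 CPM, and the highest, led by Dock5, Ano3, Pde1c, Esr1 and Hs3st2 (206 nuclei), reached 240 CPM. Next among GABAergic clusters came a cluster led by Pappa, Esr1, Pde11a, Lhx8 and Pde1c (850 nuclei, 176 CPM) that alone held 22.9% of the Esr1 UMIs of the 3 classes, and a cluster led by Moxd1, Lhx6, Greb1, Cyp19a1 and Gldn (790 nuclei) that held 13.1%. Moxd1, Lhx6 and Lhx8 are markers used for preoptic and bed nucleus neurons; neither cluster carried enough of them to be named. Of the 10221 Esr1 UMIs of the 3 classes, GABAergic neurons held 73.6%, Sim1-type neurons 22.7% and OT-like neurons 3.64%. They made up 64.1%, 33.1% and 2.76% of the nuclei of the 3 classes.

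**Figure D1:**
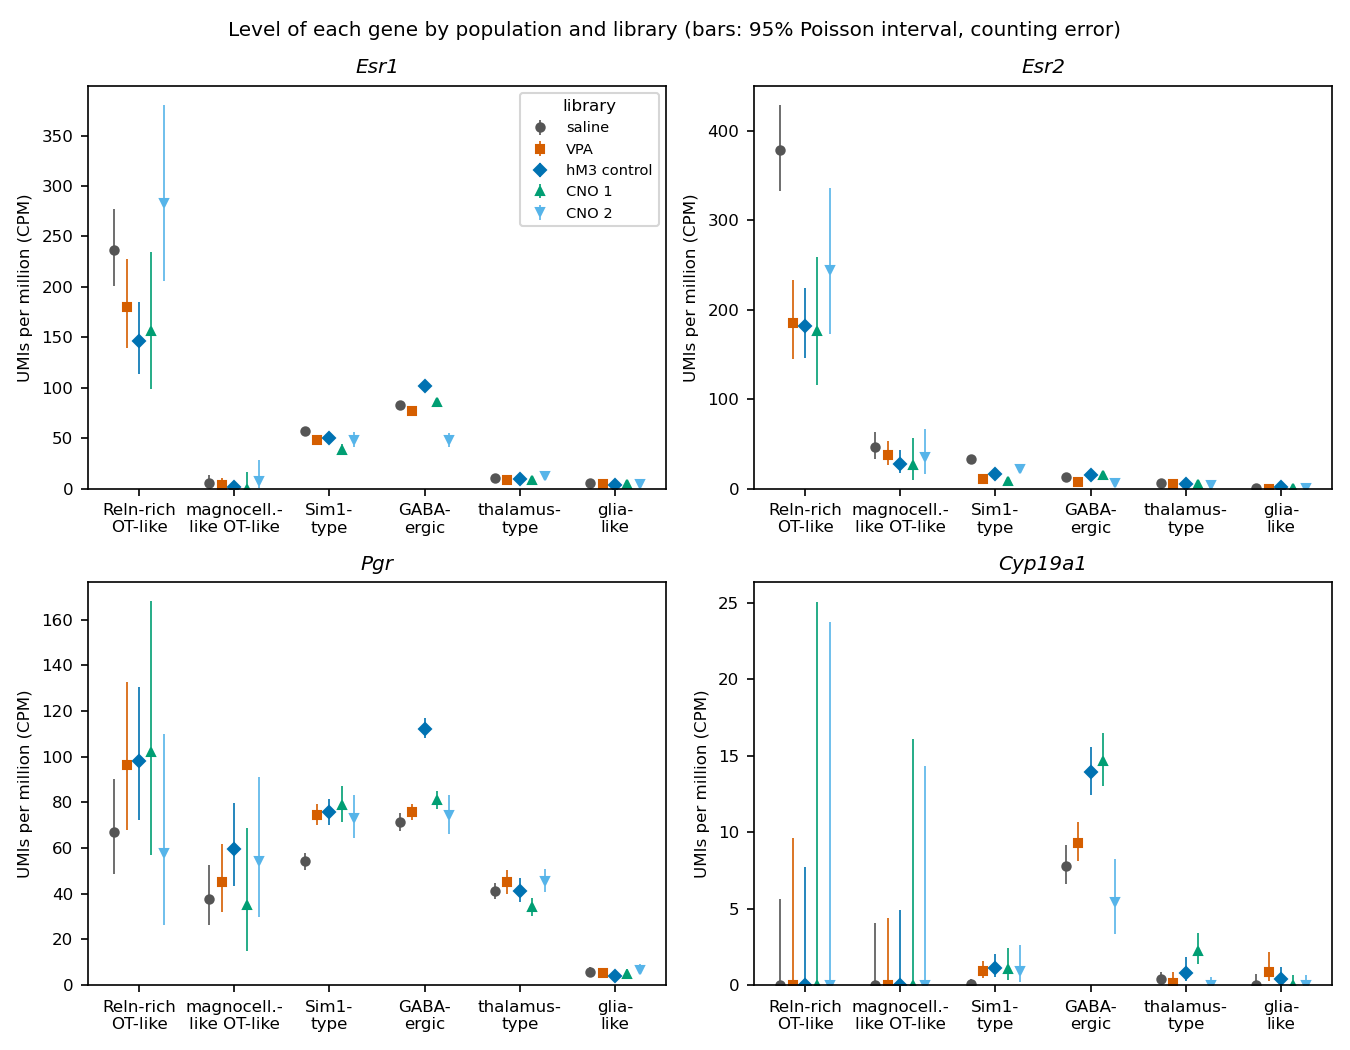
Level of each gene (CPM, linear axis) by population and library; points are libraries and bars are 95% Poisson intervals, which cover counting error only. For Esr1 all 5 Reln-rich points (146 to 283 CPM) lie above every other population, and Cyp19a1 is highest in GABAergic neurons.

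Esr2, the gene of estrogen receptor beta, was, of the populations compared, highest in the same Reln-rich OT-like subcluster and was also measured in the magnocellular-like one. The Reln-rich level was 233 ± 85.9 CPM (n = 5 libraries), with 379 in saline, 185 in VPA, 182 in the hM3 control, 177 in CNO library 1 and 245 in CNO library 2. The magnocellular-like level was 34.7 ± 8.19 CPM, with 46.5, 37.9, 27.9, 26.2 and 34.9 CPM in the same order. The ranges did not overlap, and the difference had the same sign in 5 of 5 libraries (mean 199 CPM, exact p = 0.063, adjusted 0.0848). At least 1 Esr2 UMI was found in 67.5 to 91.2% of Reln-rich nuclei and in 20 to 47.2% of magnocellular-like nuclei, against 0 to 0.530% of glia-like nuclei; after thinning to 2000 UMIs the first 2 ranges were 22.7 to 55.9% and 0 to 11.3%.

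In the other classes as wholes Esr2 was lower, while single clusters reached levels like those of OT-like neurons. It stood at 18.2 ± 9.89 CPM in Sim1-type neurons, 11.1 ± 4.31 CPM in GABAergic neurons, 5.07 ± 0.82 CPM in thalamus-type neurons and 0.52 ± 0.48 CPM in glia-like nuclei. Magnocellular-like neurons were above Sim1-type neurons in 5 of 5 libraries (exact p = 0.063, adjusted 0.0848), and Sim1-type were above GABAergic neurons in 4 of 5 (exact p = 0.3125, adjusted 0.349), with overlapping ranges (8.26 to 33.1 and 5.91 to 15.3 CPM). With equal weight for the 5 Sim1-type and 15 GABAergic clusters that had at least 10 nuclei in every library, the levels were 7.67 and 8.34 CPM, which turns this order. The median cluster stood at 3.37 CPM among Sim1-type and 3.27 CPM among GABAergic clusters. A small Sim1-type cluster led by Esr2 itself, Gm45785, Gm14507, Pde3a and Pde7b (42 nuclei) reached 383 CPM, a cluster led by Maf, Abcc9, Esr2, B230312C02Rik and Foxp2 (138 nuclei) 148 CPM, and a cluster led by Gm13912, Gm43154, Wdr64, Gm16223 and Gm14507 (115 nuclei) 78.3 CPM. The Maf/Abcc9 cluster also had Oxt at 82.5 CPM and Reln at 688 CPM. Among GABAergic clusters the Moxd1/Lhx6 cluster was highest (55.8 CPM, with 74.0, 46.0, 45.2, 63.3 and 69.1 CPM by library). Of 2569 Esr2 UMIs in the 3 classes, the Moxd1/Lhx6 cluster held 23.9%, the Reln-rich OT-like subcluster 18.3% and the Maf/Abcc9 cluster 14.0%. A processed pseudogene, Gm7862, lies within the Esr2 gene, and whether any of its reads were counted for Esr2 was not tested.

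Pgr, the gene of the progesterone receptor, was spread more evenly over the neuron populations than Esr1 or Esr2. It stood at 84.3 ± 20.2 CPM in Reln-rich OT-like, 82.9 ± 16.8 in GABAergic, 71.3 ± 9.81 in Sim1-type, 46.3 ± 10.6 in magnocellular-like OT-like and 41.4 ± 4.58 in thalamus-type neurons, and at 5.19 ± 1.03 CPM in glia-like nuclei. The Reln-rich subcluster had 67.2, 96.4, 98.2, 102 and 57.9 CPM in saline, VPA, hM3 control, CNO 1 and CNO 2, and the magnocellular-like one 37.6, 45.0, 59.7, 34.9 and 54.3 CPM; these ranges overlapped between libraries, though within each library the Reln-rich value was the higher (exact p = 0.063, adjusted 0.0848). Reln-rich OT-like neurons were above GABAergic neurons in 2 of 5 libraries (exact p = 0.75, adjusted 0.75), and magnocellular-like above thalamus-type neurons in 4 of 5, with overlapping ranges in both pairs (the latter exact p = 0.3125, adjusted 0.349). The 3 clusters with the highest Pgr were all among the 4 with the highest Esr1: the Col6a5/Sema3a cluster (282 CPM, with 206, 265, 308, 384 and 334 by library), the Dock5/Ano3 cluster (214 CPM) and the Pappa/Lhx8 cluster (149 CPM). The Pgr median over clusters was 52.0 CPM among Sim1-type and 67.1 CPM among GABAergic clusters, with no cluster of at least 50 nuclei under 21.8 CPM.

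Of the 1023 UMIs of Cyp19a1, the aromatase gene, in the 3 classes, 97% were in GABAergic neurons. Nuclei outside the OT-like, Sim1-type and GABAergic classes are not part of this share. OT-like neurons gave 0 UMIs in 344 nuclei, which allows a share of up to 0.872% of nuclei with a UMI, or 0.624 CPM over their 4808058 UMIs. The mixed Oxt cluster that was set aside is not in this count. It held 0 Cyp19a1 UMIs in saline and VPA, 1 in the hM3 control, 11 in CNO 1 (all in 1 nucleus) and 2 in CNO 2. GABAergic neurons stood at 10.2 ± 3.99 CPM (7.80 in saline, 9.31 in VPA, 13.9 in the hM3 control, 14.7 in CNO 1 and 5.40 in CNO 2) and Sim1-type neurons at 0.80 ± 0.42 CPM, with the GABAergic level higher in 5 of 5 libraries (exact p = 0.063, adjusted 0.0848). Within the GABAergic class 3 of 18 clusters reached 20 CPM, and the median cluster was at 0.35 CPM. The Moxd1/Lhx6 cluster held 48.3% of the 1023 UMIs at a level of 51.8, 42.6, 44.2, 41.5 and 53.1 CPM by library. A cluster led by Cyp19a1 itself, Qrfpr, Tmem132d, Esyt3 and Slc24a4 (215 nuclei) held 19.6% at 42.3, 70.6, 122, 101 and 111 CPM, and a cluster led by Gm10754, Trpc4 and Zfp831 (559 nuclei) 13.7% at 12.5, 20.5, 27.3, 21.2 and 5.03 CPM. The Moxd1/Lhx6 level varied little between libraries, while in the other 2 clusters the highest library was more than 2-fold above the lowest. Those lowest levels rest on few UMIs: 10 in 17 nuclei (Cyp19a1/Qrfpr cluster, saline) and 1 in 17 nuclei (Gm10754/Trpc4 cluster, CNO 2). Within each experiment the Cyp19a1 ratio intervals of these 3 clusters all held 0.

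**Figure D2:**
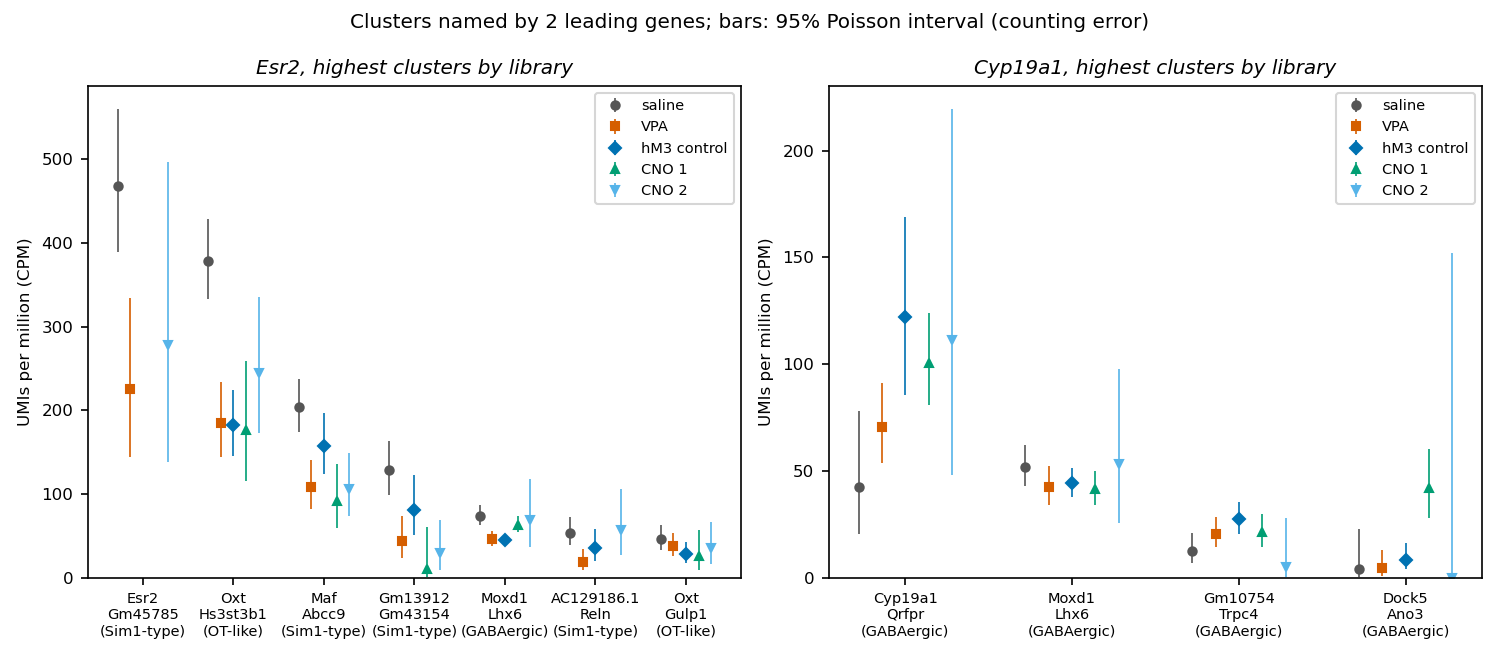
Levels (CPM, linear axis) of Esr2 and Cyp19a1 in the clusters where each was highest, named by leading genes, with 1 point per library and 95% Poisson intervals that cover counting error only. The VPA point for Esr2 lies below the saline point in each cluster shown, and Cyp19a1 in the Moxd1/Lhx6 cluster stays between 41.5 and 53.1 CPM.

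In the GABAergic and Sim1-type classes, nuclei with an Esr1 UMI more often had a Pgr UMI than nuclei without one. Of GABAergic nuclei with an Esr1 UMI 56.3% also had a Pgr UMI, against 37.3% of those without, and after thinning to 2000 UMIs the shares were 18.3% (16.0 to 20.9%, exact binomial interval, 998 nuclei) and 12.3% (11.5 to 13.1%, 6977 nuclei). Sim1-type nuclei gave 16.5% (12.8 to 20.8%) against 10.9% (10.0 to 12.0%) after thinning, and the thinned share was higher in Esr1-positive nuclei in 5 of 5 libraries in both classes. Inside single clusters the picture was mixed. In the Pappa/Lhx8 cluster 80.5% of nuclei with Esr1 and 47.9% of those without had a Pgr UMI, and after thinning 27.7% (21.5 to 34.7%, 191 nuclei) against 19.9% (16.9 to 23.2%, 658 nuclei), higher in 4 of 5 libraries, with intervals that overlap. In the Col6a5/Sema3a cluster the thinned share was 32.0% (21.7 to 43.8%) with Esr1 and 40.7% (32.5 to 49.3%) without, and in the Dock5/Ano3 cluster 36.8% (25.4 to 49.3%) and 33.3% (25.5 to 41.9%). Both estrogen receptor genes were found together in 63 of 80 Esr1-positive Reln-rich OT-like nuclei (78.8%, 68.2 to 87.1%), against 82.9% (67.9 to 92.8%) of the 41 Esr1-negative nuclei; after thinning the shares were 42.9% (26.3 to 60.6%) and 37.6% (27.4 to 48.8%), and the intervals overlap in both cases. Sim1-type nuclei with Esr1 had Esr2 in 1.14% after thinning (0.310 to 2.88%), against 2.68% (2.19 to 3.24%) of those without.

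The likeness between cluster levels followed the same lines. Across 54 neuron clusters of at least 50 nuclei, the genes whose level, as log2(CPM + 10) with libraries pooled, was most like Pgr were Gm16485 (Pearson r = 0.87), Gm32014 (0.83), Prlr (0.70), Gm35041 (0.70) and Esr1 (0.69). For Esr1 they were Gm16485 (0.73), Gm32014 (0.71), Pgr (0.69), Ksr2 (0.59) and Prlr (0.59). Gm16485 starts 3.18 kb beyond the end of Pgr on the same strand, and Gm32014 lies 159 kb before it; whether reads of Gm16485 come from transcripts that run past the end of Pgr was not tested. Prlr encodes the prolactin receptor and stood at 473 CPM in the Moxd1/Lhx6 cluster and 567 CPM in the Dock5/Ano3 cluster. Within classes the Esr1 and Pgr correlation was 0.62 over 29 Sim1-type and 0.75 over 18 GABAergic clusters (by rank, Spearman's rho 0.48 and 0.70). Esr1 and Esr2 gave -0.21 and 0.24 within those classes (rho -0.04 and 0.19) and 0.06 over all 54. Esr2 and Cyp19a1 gave -0.02 over the Sim1-type and 0.65 over the GABAergic clusters (rho 0.10 and 0.60), and 0.14 over all 54.

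The genes most like Esr2 were Cckar (0.78), which encodes the cholecystokinin A receptor, then Kif26a (0.70), Abcc9 (0.68), Pacs1 (0.64) and Syne2 (0.62), and Syne2 is the neighbour of Esr2, 9.49 kb away on the opposite strand. Those most like Cyp19a1 were Gm34838 (0.77), Hpse2 (0.75), Lhx6 (0.75), Sptlc3 (0.74) and Gldn (0.71), with Gldn 18.4 kb away. Without strand in the counting, which is not stated, reads of close neighbours cannot be fully told apart. By rank the likeness was lower for all 10 of these genes: Spearman's rho was 0.56 for Cckar, 0.38 for Syne2, 0.27 for Kif26a, 0.21 for Pacs1 and 0.12 for Abcc9, and 0.61 for Lhx6, 0.57 for Gldn, 0.47 for Sptlc3, 0.40 for Gm34838 and 0.16 for Hpse2. Of the 10, Cckar, Lhx6 and Gldn were also among the 5 most like by rank; the cause was not tested. These are descriptions across clusters that share libraries, depth and tissue, and clusters are not replicates.

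**Figure D3:**
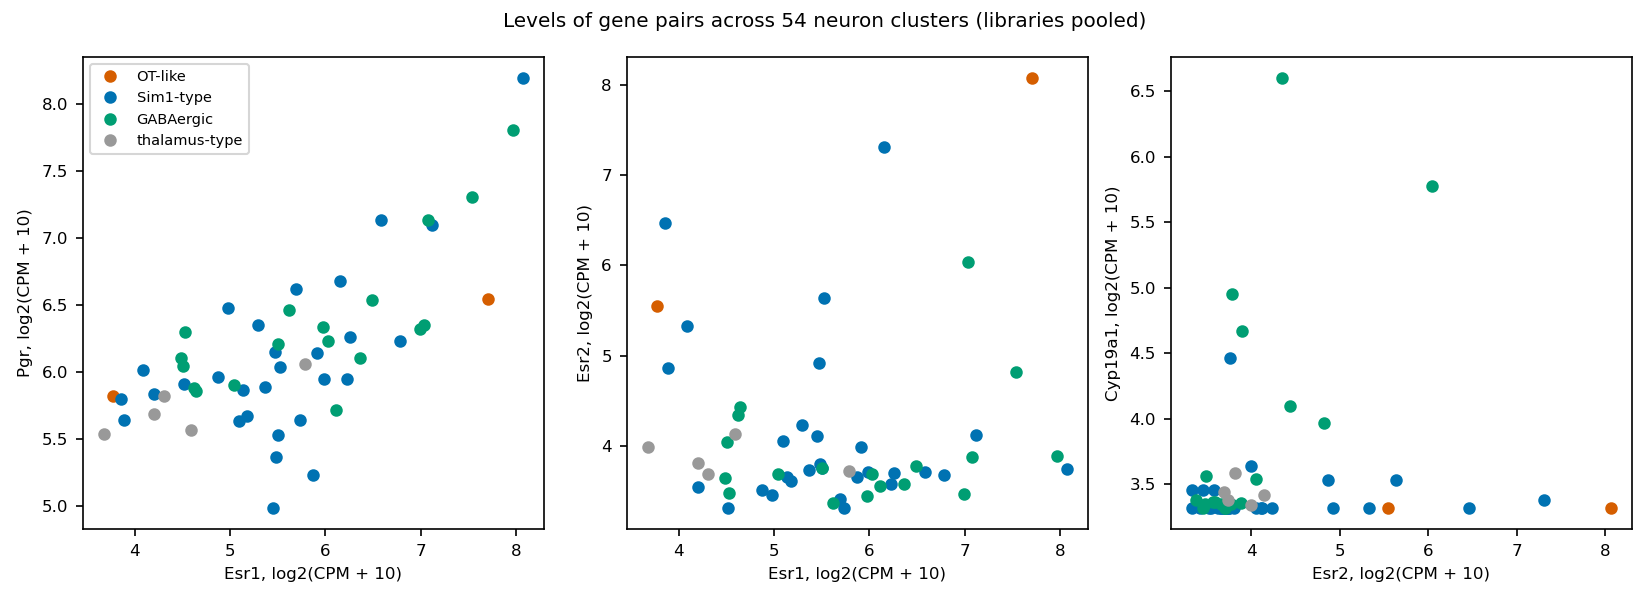
Cluster levels, as log2(CPM + 10) with libraries pooled, for Esr1 against Pgr, Esr1 against Esr2, and Esr2 against Cyp19a1, 1 point per neuron cluster of at least 50 nuclei. Esr1 and Pgr lie along a line (r = 0.69), Esr1 and Esr2 do not (r = 0.06), and the Reln-rich OT-like point is high in both estrogen receptor genes.

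The comparison of VPA with saline asks how prenatal valproate exposure was followed by differences in these genes at 5 weeks. Esr2 was lower in the VPA library in all 3 classes: 83.8 against 186 CPM in OT-like (log2 ratio -1.15, counting interval -1.49 to -0.82), 11 against 33.1 CPM in Sim1-type (-1.59, -1.86 to -1.32) and 7.24 against 12.7 CPM in GABAergic neurons (-0.81, -1.11 to -0.52). It was thus past 2-fold in OT-like and Sim1-type neurons, where 1.75% of 10107 genes and 1.61% of 16226 genes with at least 20 UMIs were lower by that much; in GABAergic neurons, where 1.3% were, it was not. Esr1 was lower by less, with ratios of -0.81 (-1.23 to -0.40) in OT-like, -0.25 (-0.40 to -0.10) in Sim1-type and -0.11 (-0.20 to -0.01) in GABAergic neurons. Pgr was higher in Sim1-type neurons (74.6 against 54.2 CPM, 0.46, 0.33 to 0.60), and its interval held 0 in OT-like (0.29, -0.19 to 0.76) and GABAergic neurons (0.09, -0.02 to 0.19). Where a gene of the 4 had at least 20 summed UMIs in a class, it was not past 2-fold higher; 2.34%, 1.94% and 1.94% of all genes were, in the 3 classes. Cyp19a1 in GABAergic neurons gave 0.26 (-0.05 to 0.57). In Sim1-type neurons it was under that minimum, with 12 UMIs in 7 nuclei in VPA against 1 UMI in saline (3.77, 1.01 to 9.18). The median over all genes was 0.03, 0.04 and 0.05 in the 3 classes. Class ratios also hold any difference between the libraries in the make-up of a class. With equal weight for the 28 Sim1-type clusters with at least 10 nuclei in each library, the Esr2 ratio was -1.15 in place of -1.59. That setting both drops clusters and changes weights. The part of class make-up in these ratios was not tested. There was 1 library on each side, at a median depth of 5247 and 10826 UMIs per nucleus, so difference between pools of mice and difference between treatments cannot be told apart.

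**Figure D4:**
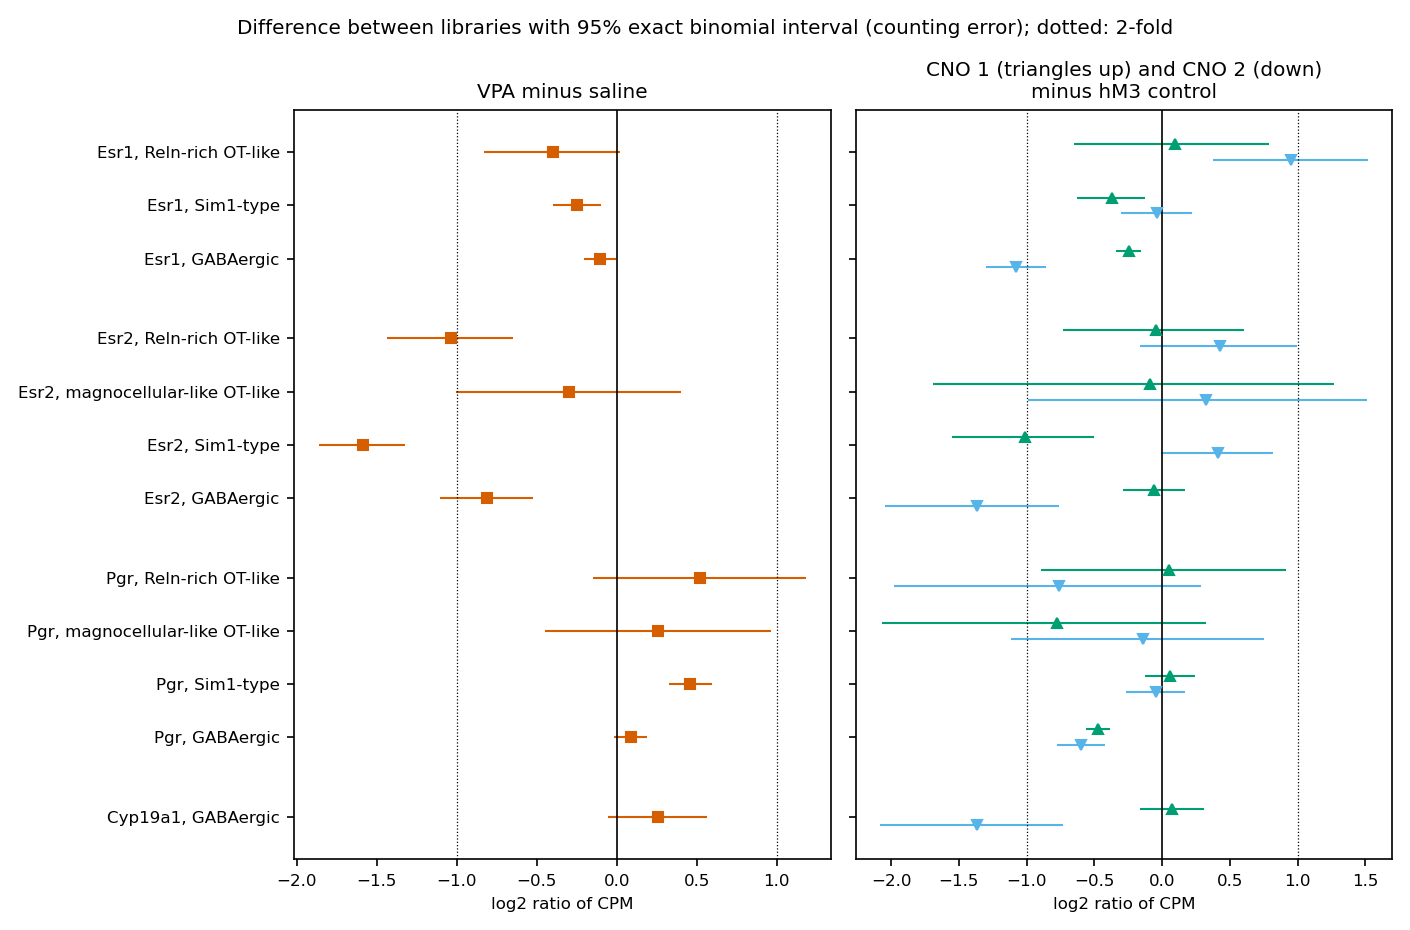
Difference between libraries as log2 ratio of CPM for VPA minus saline and for each CNO library minus the hM3 control, by gene and population, with 95% exact binomial intervals that cover counting error only and dotted lines at 2-fold. Every VPA point for Esr2 is below 0, while the CNO libraries lie on different sides of 0 for Esr2 in Sim1-type neurons (-1.01 and 0.41).

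Within the OT-like class the lower Esr2 stood in the Reln-rich subcluster, with 185 against 379 CPM (-1.03, -1.44 to -0.65), past 2-fold beside 3.47% of 6741 genes lower by that much. The magnocellular-like subcluster gave 37.9 against 46.5 CPM (-0.30, -1.01 to 0.40), an interval that holds 0; the difference between the subclusters was not tested. After thinning to 2000 UMIs, 32.5% of Reln-rich nuclei had an Esr2 UMI in VPA and 55.9% in saline. Esr1 in the Reln-rich subcluster gave -0.40 (-0.83 to 0.02), which is smaller than for all OT-like nuclei together; Reln-rich nuclei were 34 of 87 OT-like nuclei in saline and 40 of 135 in VPA. Whether fewer cells with the transcript or less transcript per cell lay behind such ratios cannot be told apart.

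By cluster, Esr2 was lower in VPA in 9 of the 9 clusters that had 10 nuclei in each library and 20 UMIs in sum, with 8 intervals below 0, 6 clusters past 2-fold, and a median log2 ratio of -1.06 (-1.82 to -0.30). Over all genes and clusters held to the same minimum (335472 pairs), 47.6% were lower and 2.93% were lower past 2-fold. The clusters came from every class: 128 to 43.6 CPM from saline to VPA in the Gm13912/Gm43154 cluster (-1.56, -2.51 to -0.71), 468 to 225 CPM in the Esr2/Gm45785 cluster (-1.06, -1.75 to -0.42), 204 to 109 CPM in the Maf/Abcc9 cluster (-0.91, -1.36 to -0.47) and 74.0 to 46.0 CPM in the GABAergic Moxd1/Lhx6 cluster (-0.69, -1.07 to -0.31). The 47 neuron clusters below the minimum, pooled, had 118 UMIs in saline and 91 in VPA (-0.52, -0.93 to -0.11). Because the minimum was on the sum of both libraries, a cluster could pass through its saline UMIs alone. The Gm13912/Gm43154 cluster, for one, had 64 UMIs in saline and 14 in VPA. All 9 clusters came from the same pair of libraries and are not replicates.

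Esr1 was lower in 26 of 38 clusters, with 11 intervals below 0 and 1 above, and a median of -0.26. The 18 clusters below the minimum, pooled, had 92 UMIs in saline and 122 in VPA (0.29, -0.11 to 0.70). The lower values included the clusters with the most Esr1: 447 against 186 CPM in the Col6a5/Sema3a cluster (-1.26, -1.59 to -0.94), where 2.18% of genes were lower past 2-fold, and 473 against 245 CPM in the Dock5/Ano3 cluster (-0.95, -1.30 to -0.59), where 3.93% were and Esr1 was just under 2-fold. The Pappa/Lhx8 cluster, which holds the most Esr1 UMIs, gave 173 and 178 CPM (0.03, -0.23 to 0.30). In those clusters Pgr, a known target of estrogen receptor alpha, gave 0.37 (lower bound just under 0, upper 0.74), 0.47 (-0.04 to 1.01) and 0.33 (0.03 to 0.64), and none of the 3 was below 0. Over 42 clusters Pgr was higher in 25, with 3 intervals above 0 and 1 below, and a median of 0.26, and the 14 clusters below the minimum, pooled, gave 0.75 (0.37 to 1.14). Cyp19a1 could be compared in 3 clusters, with ratios of -0.28, 0.71 and 0.74, and all 3 intervals held 0. The 53 clusters below the minimum, pooled, had 14 Cyp19a1 UMIs in saline and 39 in VPA (1.48, 0.56 to 2.47).

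**Figure D5:**
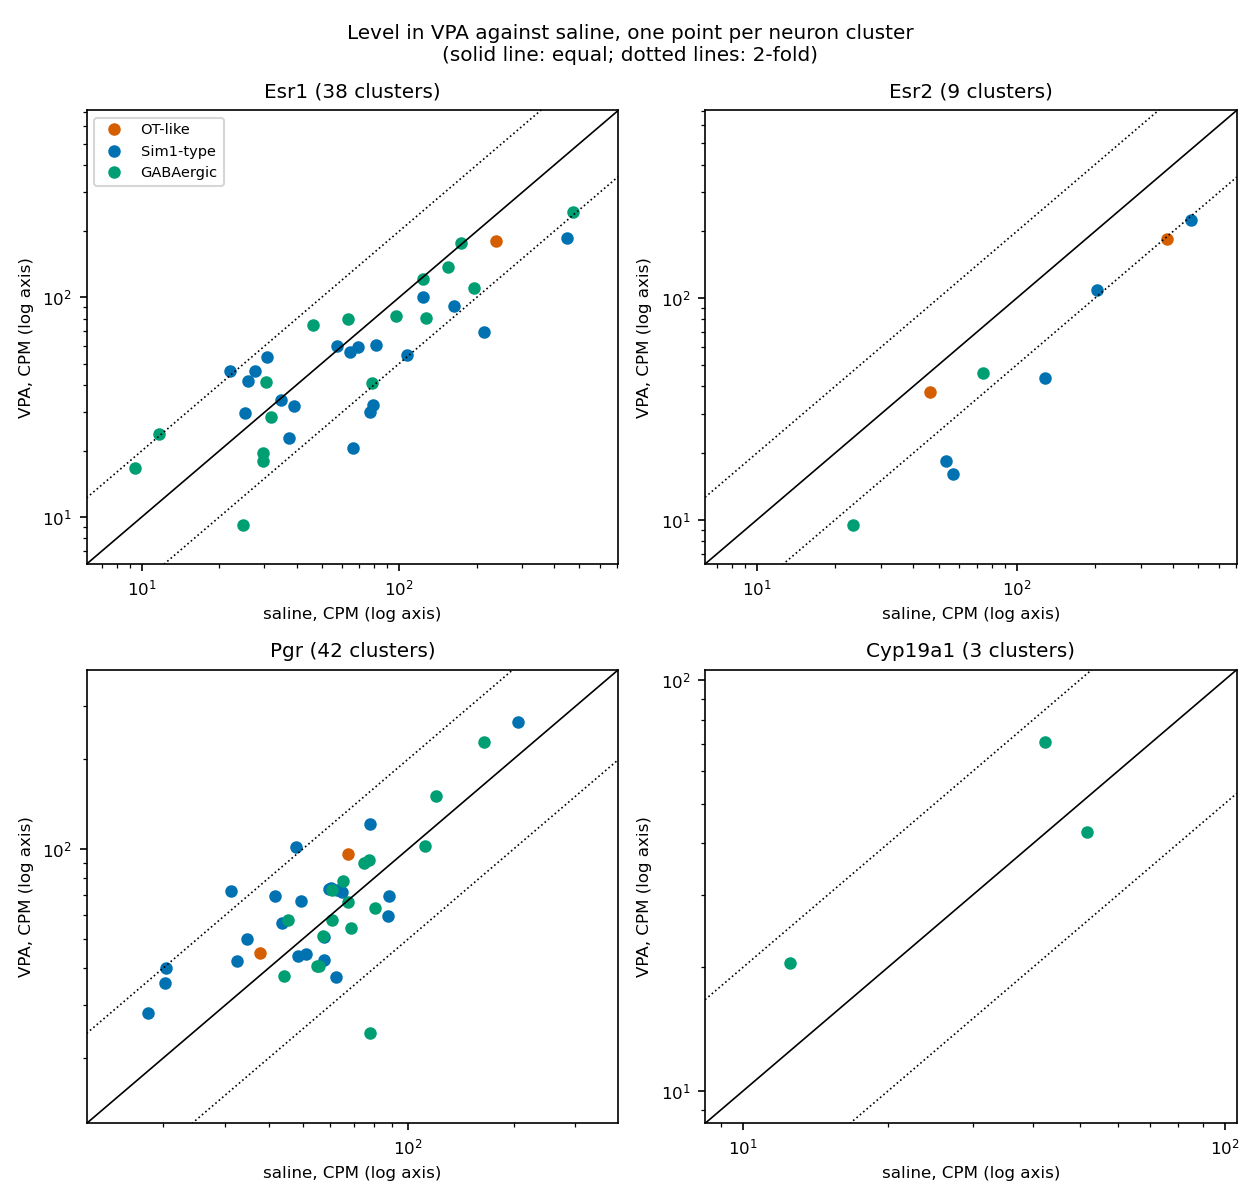
Level in the VPA library against the saline library (CPM, log axes), 1 point per neuron cluster with at least 10 nuclei in each library and 20 UMIs in sum; the solid line is equality and dotted lines are 2-fold. All 9 Esr2 points lie below the line, as do 26 of 38 Esr1 points and 17 of 42 Pgr points.

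The comparison of CNO with the hM3 control asks whether activating OT neurons soon after birth was followed by differences in VPA-exposed mice. No gene of the 4 was past 2-fold in both CNO libraries in any of the 3 classes, where 1.75% of genes were higher and 0.89% lower by that rule in OT-like, 1.45% and 0.284% in Sim1-type, and 1.62% and 0.261% in GABAergic neurons. In OT-like neurons Esr1 stood at 57.7 CPM in the control, 61.1 in CNO 1 and 111 in CNO 2, giving 0.08 (-0.66 to 0.78) and 0.95 (0.38 to 1.5); CNO 1 held 19 OT-like nuclei, of which 7 were Reln-rich. Esr2 there gave -0.04 (-0.66 to 0.54) and 0.38 (-0.15 to 0.88), and Pgr -0.29 (-1.02 to 0.38) and -0.42 (-1.15 to 0.25). Both Pgr intervals held 0, and the mean Pgr ratio turned above 0 under other settings, given in the last section. Sim1-type neurons showed the CNO libraries apart for Esr2, with 16.7 CPM in the control, 8.26 in CNO 1 and 22.1 in CNO 2 (-1.01, -1.55 to -0.50, and 0.41, -0.01 to 0.82). Sim1-type Pgr gave 0.06 and -0.05, and Sim1-type Esr1 -0.37 (-0.63 to -0.12) and -0.04 (-0.31 to 0.22).

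GABAergic neurons had intervals below 0 in both CNO libraries for Esr1 and Pgr, which neither other class had for any of the genes. Esr1 was 101 CPM in the control, 85.5 in CNO 1 and 48.1 in CNO 2 (-0.25, -0.34 to -0.15, and -1.08, -1.30 to -0.86), and Pgr was 112, 80.9 and 74.3 CPM (-0.47, -0.56 to -0.38, and -0.60, -0.78 to -0.42). Esr2 and Cyp19a1 were near the control in CNO 1 (-0.06 and 0.07) and lower in CNO 2 (-1.37 for both, -2.04 to -0.76 and -2.08 to -0.73). The make-up of the class differed too, mainly in CNO 2: the Esr1-rich Pappa/Lhx8 cluster was 22.5% of GABAergic nuclei in the control, 22.9% in CNO 1 and 3.90% in CNO 2 (17 nuclei), and the Moxd1/Lhx6 cluster 15.1%, 12.6% and 4.36% (19 nuclei). A cluster led by Eepd1, Pvalb and Kcnmb2, low in Esr1 (12.8 CPM), was 0.934%, 8.44% and 9.17%. The part of these shares in the ratios was not tested. With equal weight for the 16 of 20 clusters that had at least 10 nuclei in each of these libraries, which both drops clusters and changes weights, the mean CNO ratio was -0.13 in place of -0.60 for Esr1, 0.44 in place of -0.57 for Esr2, -0.16 in place of -0.53 for Pgr and -0.27 in place of -0.47 for Cyp19a1. In the Moxd1/Lhx6 cluster Cyp19a1 was 44.2, 41.5 and 53.1 CPM, and Esr2 45.2, 63.3 and 69.1 CPM, with an Esr2 interval above 0 in CNO 1 (0.17 to 0.80) and one that held 0 in CNO 2 (-0.33 to 1.42, 13 UMIs); both Cyp19a1 intervals (-0.45 to 0.27 and -0.82 to 1.18) held 0. Over the clusters with enough nuclei and UMIs, Esr1 was lower in 12 of 17 in CNO 1 (4 intervals below 0, 1 above, median -0.13) and in 8 of 18 in CNO 2 (1 below, 3 above, median 0.16). Pgr was lower in 16 of 24 (7 below, 0 above) and 14 of 24 (2 below, 2 above). These counts are over clusters of any of the 3 classes. Over all genes and clusters held to the same minimum, 42.4% of pairs were lower in CNO 1 and 52.2% in CNO 2. In clusters compared in both CNO libraries, Esr1 was lower in both in 7 of 13, higher in both in 2 and on opposite sides in 4. Pgr was lower in both in 10 of 19, higher in both in 3 and on opposite sides in 6. The GABAergic Pappa/Lhx8 cluster had intervals below 0 in both CNO libraries, for Esr1 (-0.23, -0.36 to -0.09, and -2.19, -3.64 to -1.07, on 6 UMIs) and for Pgr (-0.46, -0.60 to -0.31, and -0.75, -1.59 to -0.02). Esr2 there was also lower in CNO 1 (-0.85, -1.30 to -0.41), with 1 UMI in CNO 2. The Dock5/Ano3 cluster had Cyp19a1 at 41.9 CPM in CNO 1 (29 UMIs) against 8.43 CPM in the control (9 UMIs), and 0 UMIs in the 3 nuclei of CNO 2.

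Receptors for adrenal steroids were measured beside these genes. Nr3c1, the glucocorticoid receptor gene, was at 35.6 ± 15.2 CPM in Reln-rich and 6.41 ± 6.94 CPM in magnocellular-like OT-like neurons, and Nr3c2, the mineralocorticoid receptor gene, at 84.5 ± 45.9 and 313 ± 39 CPM. Of 16 other nuclear and membrane steroid receptor genes, a list without Esr1, Esr2 and Pgr, 11, 13 and 14 had at least 20 UMIs in OT-like, Sim1-type and GABAergic neurons, and none was past 2-fold in VPA against saline (medians -0.03, -0.13 and -0.13). None was in both CNO libraries either; the lowest mean CNO ratio was -0.73, for Nr3c1 in Sim1-type neurons (70.7 and 80.8 CPM against 126).

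Of 18 coregulators, proteins that receptors recruit or that prepare their sites, 16, 16 and 17 were measured, and Gata3 in GABAergic neurons was the one past 2-fold in VPA (0.97 against 3.51 CPM, -1.86), beside 1.3% of all genes. Of 23 genes of steroid synthesis and metabolism in the files, 4, 12 and 12 were measured. In Sim1-type neurons Cyp11a1, which makes pregnenolone from cholesterol, was lower in VPA (0.89 against 2.03 CPM, -1.19) and Tspo higher (3.79 against 1.77 CPM, 1.10), beside 1.61% and 1.94% of all genes in those directions. Hsd3b2 was the one gene of that list past 2-fold in both CNO libraries, in GABAergic neurons, at 1.71 and 2.31 CPM against 0.79 CPM, beside 1.62% of all genes. These levels lie between 0.79 and 3.79 CPM and rest on 43 to 90 UMIs.

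Of 20 genes known to respond to estrogen or progesterone, a list that holds Pgr itself, 8, 15 and 17 were measured in VPA against saline. Igf1, a growth factor, was lower in OT-like neurons (3.25 against 11.6 CPM, -1.83, 22 UMIs; 1.75% of all genes) and below saline in Sim1-type (-0.84) and GABAergic neurons (-0.97). Cited1 and Fos were past 2-fold higher in Sim1-type neurons, at 1.19 against 0.59 CPM and 1.56 against 0.66 CPM (2 of 15, beside 1.94% of all genes, on 25 and 31 UMIs). The list medians were 0.26, -0.01 and 0.16. Greb1, an estrogen-induced gene that led the Moxd1/Lhx6 cluster (162 CPM there), was 12.0 and 11.5 CPM in Sim1-type and 21.4 and 25.2 CPM in GABAergic neurons of saline and VPA (-0.06 and 0.24). In the CNO comparison no gene of this list passed 2-fold in both libraries. The list medians were -0.06, 0.21 and 0.31 in OT-like, Sim1-type and GABAergic neurons, against 0.06, 0.10 and 0.12 over all genes. In GABAergic neurons 11 of the 17 measured genes had a ratio above 0, while Greb1 gave -0.27 and -1.87 and Prlr -0.39 and -1.45.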

How the data were processed

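Single-nucleus RNA was read on a droplet platform, and the 5 deposited tables hold UMI counts per gene and nucleus. The authors made the counts with Cell Ranger 7.0.1, per the file headers and the submitters' processing notes, on mm10 per those notes; intron and strand settings are not given in the sources used here. Nuclei under 1000 UMIs or over 5% mitochondrial UMIs were dropped, and the highest doublet scores were removed at 0.8% per 1000 nuclei (3.94 to 8.82% per library), because the automatic threshold of a simulated-doublet score marked 0.00928 to 2.80%. Clusters were built by Leiden clustering (leidenalg 0.10.2) of 30 principal components of 2000 genes, leaving out Esr1, Esr2, Pgr and Cyp19a1; class thresholds were set after seeing the clusters, so populations may differ from the authors' own. UMIs were summed by library and class, with exact Poisson intervals for levels, exact binomial intervals for shares and exact conditional binomial intervals for ratios, all at 95% and for counting error only, and the ratio code was tested on simulated data. Library totals were 52506958 to 76243280 UMIs. A gene was called past 2-fold if it had at least 20 summed UMIs (for CNO, in both libraries in 1 direction). Named genes were the 4 genes, the 5 most like each, leading genes of the 3 clusters with the highest level of each, and the 3 highest and 3 lowest of each gene list, not all of which are printed; other clusters and genes (Gm7862, Gldn's and Syne2's position, Greb1, Prlr) were added after their values were seen. The genes and lists were chosen with earlier results of these data known. Sequences and positions are from RefSeq and GENCODE tables of GRCm38. A few items are not reported here.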

Additional observations from a re-analysis of the deposited data

How the results depend on the processing

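Values below are log2 ratios unless given in CPM. No ratio past its 2-fold mark changed sign, 237 of 268 recomputed main values stayed within the spread or interval, and the others follow. With each nucleus thinned to 2000 UMIs: OT-like Pgr 75.1 CPM, VPA 0.88 and CNO -0.50; Sim1-type VPA Esr2 -2.01 and Pgr 0.67, CNO Pgr 0.24; GABAergic VPA Esr1 -0.22 and Cyp19a1 0.79. With classes from marker UMIs of single nuclei: OT-like CNO Esr2 -0.12 and Pgr 0.13; Sim1-type VPA Esr2 -1.11 and CNO Pgr 0.15; GABAergic VPA Esr1 -0.21 and Cyp19a1 -0.24. With equal weight for clusters of at least 10 nuclei in each library compared, which also drops clusters (5 of 34 Sim1-type clusters left for levels and 28 for VPA, 17 and 16 of 20 GABAergic clusters for VPA and CNO): Sim1-type Esr1 79.4, Esr2 7.67 and Pgr 99.3 CPM, VPA Esr1 -0.70, Esr2 -1.15 and Pgr 0.25; GABAergic VPA Esr1 -0.38, CNO Esr2 0.44 and Pgr -0.16. With a mean over nuclei, CNO Pgr was -0.46 in OT-like and 0.084 in Sim1-type neurons; with median-ratio size factors it was -0.076 in Sim1-type and -0.62 in GABAergic neurons; with a pseudocount of 5 CPM, Sim1-type VPA Esr2 was -1.25. Among settings chosen after seeing the data, keeping the mixed OT cluster gave CNO Pgr 0.16 in OT-like neurons, and dropping clusters of fewer than 10 nuclei gave Sim1-type CNO Esr1 -0.68 and Pgr -0.30. The cause was not tested. Leaving out 1 CNO library gave the 2 single-library ratios of the report: OT-like Esr1 0.08 to 0.95, Esr2 -0.04 to 0.38, Pgr -0.42 to -0.29; Sim1-type Esr1 -0.37 to -0.04, Esr2 -1.01 to 0.41, Pgr -0.05 to 0.06; GABAergic Esr1 -1.08 to -0.25, Esr2 -1.37 to -0.06, Pgr -0.60 to -0.47, Cyp19a1 -1.37 to 0.07. The share of genes past 2-fold depends on the minimum of 20 UMIs: at 100 UMIs and with none it was 0.525% and 28.4% in place of 4.09% (OT-like, VPA), 0.616% and 20.3% in place of 3.56% (Sim1-type, VPA), 0.636% and 18.8% in place of 3.24% (GABAergic, VPA), and 0.186% and 16.4% in place of 2.64%, 0.339% and 11.2% in place of 1.74%, and 0.455% and 9.16% in place of 1.88% for CNO in the same order, where the mean of both libraries gave 7.22%, 5.13% and 6.05%. No paired analysis was possible because only the CNO group carries replicate numbers. Depth limits Esr1 in magnocellular-like nuclei (at most 5 UMIs a library) and Cyp19a1 in OT-like (0 UMIs) and Sim1-type neurons (at most 12 UMIs a library).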
